A study of Brassica napus with 6 samples.

Results

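In oilseed rape microspore cultures, 54 gene identifiers were silent in pollen culture and reached very unequal levels in the 3 cultures treated with heat stress and a histone deacetylase inhibitor. They were chosen on read counts. An identifier was taken when the 3 pollen-culture libraries together held no more than 3 reads of it, when it reached at least 10 CPM (reads scaled to a library of 1000000 reads) in the highest treated library, and when it stayed below 3 CPM in the lowest. A gene at 3 CPM or more in a library is called on in that library below. This rule took 54 of the 101040 gene identifiers. It used all 6 libraries, so the levels below are a description of the 54 and no test was made on them. The rule finds no identifier at all when treated replicate 1 is left out (0 of 179 that are silent in pollen culture and reach 10 CPM), so the whole group rests on how that library differs from the other treated libraries.

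The cultures came from Brassica napus genotype DH12075 and began as late unicellular microspores, the haploid cells that normally form pollen. The treated group (n = 3) received 33 °C together with 0.05 µM trichostatin A (TSA) for 24 h. The control group (n = 3) was held at 25 °C so that pollen could form, with DMSO according to the protocol, although its treatment label reads untreated. Both groups were then washed, moved to 25 °C and harvested on day 2. The labels give microspores and pollen as the control material and name embryogenic cells beside these in the treated material, so each treated library is a mixture, and each held RNA of many cells. Fewer embryogenic cells and less RNA per such cell cannot be told apart in these libraries. Heat and TSA changed together, so no value can be assigned to either. The identifiers carry no gene names, and the labelled cell types were not checked against marker genes here.

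Microspores can leave the pollen pathway when they are stressed and then divide as embryogenic cells, a route that plant breeders use to make doubled haploid lines. Histone deacetylases remove acetyl groups from histones, which in general goes with closed chromatin and silent genes, and TSA blocks these enzymes. Only some of the cells in such a culture respond, and the share that does is known to vary from culture to culture.

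Library totals ran from 11758677 to 24773444 counts, and treated replicate 1 was the smallest. The replicates numbered 1 stood apart in both groups. Across identifiers, Pearson's r of log2 CPM was 0.962 between treated replicates 2 and 3, against 0.879 and 0.872 between treated replicate 1 and each of them. In pollen culture it was 0.985 between replicates 2 and 3, against 0.926 and 0.909 for replicate 1. The labels name no batch, so replicate number and any batch cannot be told apart.

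The unevenness had 1 main form: the genes were low in treated replicate 1 and on in treated replicates 2 and 3. Replicate 1 was the lowest treated library for 53 of the 54 identifiers. Replicate 3 carried the highest level of 32 and replicate 2 that of 21. No identifier had its lowest level in replicate 2. In 24 of the 53 both replicates 2 and 3 were at 10 CPM or more, and in the other 29 the second of them lay between 3 and 10 CPM, with 3.75 CPM as the lowest such value. Each of these 53 genes was therefore on in both replicates 2 and 3.

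**Figure D1:**
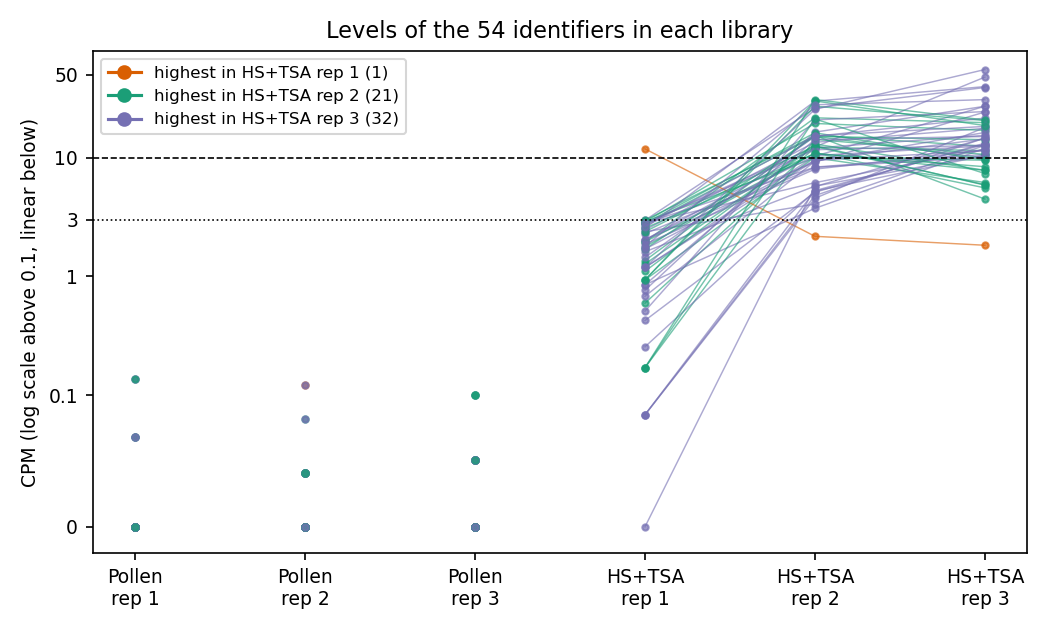
CPM of the 54 identifiers in each of the 6 libraries, with lines joining the treated values of 1 identifier and colours for its highest treated library; the dashed and dotted lines mark 10 and 3 CPM. The treated replicate 1 points lie below 3 CPM for 53 identifiers and at 11.9 CPM for 1, while the pollen-culture points lie at or below 0.136 CPM.

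GSBRNA2T00151289001 reached the highest level of the group. It had 0, 1 and 1 reads in pollen-culture replicates 1 to 3 and stood at 1.19, 25.6 and 55.5 CPM in treated replicates 1 to 3 (mean 27.5 ± 27.2, SD, n = 3). The SD was nearly as large as the mean, and the highest treated library was 46.6-fold above the lowest. Its 14 reads in treated replicate 1 give a 95% exact Poisson interval of 0.651 to 2.00 CPM, far below the interval of 23.7 to 27.7 CPM in replicate 2. Such intervals reflect the counting error of reads alone, since without molecular identifiers copies of 1 molecule cannot be told from separate molecules.

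GSBRNA2T00147022001 was the strongest of the genes that peaked in replicate 2. It had 0, 1 and 2 reads in pollen-culture replicates 1 to 3, and 0.170, 31.0 and 20.9 CPM in treated replicates 1 to 3 (mean 17.3 ± 15.7, SD, n = 3). Treated replicate 1 held 2 reads of it, hardly more than a pollen-culture library, while replicates 2 and 3 held 768 and 478. The highest treated library was 182-fold above the lowest.

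Other high members showed the same shape. The next highest of those led by replicate 3 had no pollen-culture read and 2.81, 12.4 and 47.9 CPM in treated replicates 1 to 3. Its treated mean was at least 414-fold higher than pollen culture, taking 3 counts in that group as the floor. The next highest of those led by replicate 2 had 1 pollen-culture read and 0.935, 30.2 and 18.7 CPM. Replicates 2 and 3 thus differed from each other as well, by 3.88-fold in the former and by 1.61-fold in the latter, but by less than either differed from replicate 1.

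Most of the 54 were modest genes. The highest treated level had a median of 14.9 CPM, and it was below 20 CPM in 39 identifiers and at 30 CPM or more in 7. The mean over the 3 treated libraries ran from 5.31 to 27.5 CPM with a median of 8.48. The 5 strongest identifiers held 21.0% of the summed level of the group in replicates 2 and 3, so no single gene dominated it. Added together, the 54 gave 95.4, 724 and 873 CPM in treated replicates 1 to 3, and 0.748, 0.938 and 1.16 CPM in pollen-culture replicates 1 to 3.

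The genes low in treated replicate 1 were not on there by the limit of 3 CPM, but reads of most were still found. The 53 had a median of 20 reads (1.70 CPM) in that library, from 0 to 35. More than 3 reads were found for 45 of them, although the library is smaller than the pollen-culture group in which all 3 libraries together held at most 3. In 51 of the 53 the CPM of treated replicate 1 lay above that of each pollen-culture library. Over all 54, each treated library exceeded each pollen-culture library in 52, and in 45 of the 45 that were tested. The rule used these libraries, and 18.1% of all 49871 identifiers tested were separated in that direction.

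For 8 of the 53, treated replicate 1 held at most 3 reads. One of them had no read there and stood at 5.73 and 14.7 CPM in replicates 2 and 3. In treated replicate 1, 3 counts equal 0.255 CPM, and the 95% counting interval for no read reaches 0.314 CPM. With 3 counts taken as the floor, its level in replicate 1 was at least 22.5-fold lower than in replicate 2 and at least 57.5-fold lower than in replicate 3. Against the upper end of the interval these folds would be smaller. Replicate 3 led in 5 of these 8 and reached 10.5 to 18.1 CPM in them, with 4.56 to 5.73 CPM in replicate 2. Replicate 2 led in the other 3, at 14.3, 21.3 and 31.0 CPM, where replicate 3 had 10.7, 7.37 and 20.9 CPM. These 8 come nearest to genes that were on in a pair of cultures and silent in the third.

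Counting intervals describe how precisely the low levels in replicate 1 were measured, and the rule that chose these levels sets much of their distance from the other libraries. The limit of 3 CPM equals 35.3 reads in that library. The 95% counting interval of replicate 1 stayed below 3 CPM in 33 of the 53 identifiers and reached past it in 20. In 51 of the 53 it lay wholly below the intervals of both replicates 2 and 3, of which the separation from the highest library follows from the limits. With every library thinned at random to 11758677 counts, 67 of 68 identifiers taken by the rule were lowest in replicate 1.

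A single identifier went the other way. It had 0, 3 and 0 reads in pollen culture and 11.9, 2.18 and 1.83 CPM in treated replicates 1 to 3, or 140, 54 and 42 reads. It was the only one of the 54 on in 1 treated library alone. Its membership depended on the scaling, since with trimmed-mean (TMM) scaled totals its level in replicate 1 was 9.79 CPM and it no longer reached 10 CPM.

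Treated replicates 2 and 3 were both on in the 53 genes but were not equal. The ratio of replicate 2 to replicate 3 had a median of 0.830 and ran from 0.253 to 3.43, and it was within 2-fold in 38 of 53. Over all 23712 identifiers at 10 CPM or more in the highest treated library its median was 1.11. The 95% counting intervals of replicates 2 and 3 were apart in 37 of the 53, so the difference exceeded the counting error of reads in these. These values use library totals, and the TMM factors of 1.02 and 0.921 in replicates 2 and 3 would lower the ratio further. Among the 32 led by replicate 3, the median levels were 1.66, 9.53 and 14.9 CPM in replicates 1 to 3, and 11 were at least 2-fold above replicate 2. Among the 21 led by replicate 2, the medians were 1.70, 15.2 and 9.55 CPM, and 4 were at least 2-fold above replicate 3. Replicate 1 had nearly the same median in both subsets, where the rule holds it below 3 CPM. The order of replicates 2 and 3 in these medians follows from the sorting by the leading library.

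Genes silent in pollen culture and on in every treated library were mostly lowest in replicate 1 too. Of the 182 identifiers with at most 3 pollen-culture reads and 10 CPM or more in the highest treated library, the 54 make up 29.7%, and the other 128 were at 3 CPM or more in all 3 treated libraries. Replicate 1 was the lowest library in 113 of these 128. Their summed level was 2185, 5746 and 5784 CPM in treated replicates 1 to 3, so the mean of replicates 2 and 3 was 2.64-fold that of replicate 1. For the 54 this ratio was 8.37. The median level of replicate 1 relative to the mean of replicates 2 and 3 was 0.419 in the 128 (quartiles 0.260 and 0.618) and 0.106 in the 53 (quartiles 0.0461 and 0.198). The limit of 3 CPM selects for a low replicate 1, so this gap between the sets is part of the rule and was not tested.

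The 2 sets overlapped in the relative level of replicate 1. In 54 of the 128, replicate 1 was as low relative to replicates 2 and 3 as in some of the 53 (a ratio of at most 0.357), and in 9 it was at or below the median of the 53. When the 182 are arranged by the mean of replicates 2 and 3, the median relative level of replicate 1 was 0.289 below 10 CPM (n = 30), 0.315 from 10 to 15 CPM (n = 51), 0.236 from 15 to 25 CPM (n = 35), 0.340 from 25 to 50 CPM (n = 37) and 0.317 at 50 CPM or more (n = 29). The share taken by the rule went from 66.7% in the first of these classes to 16.2% in the fourth and 0% in the last. A fixed limit in CPM takes weaker genes more readily by construction, while the median relative level of replicate 1 stayed between 0.236 and 0.340.

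**Figure D2:**
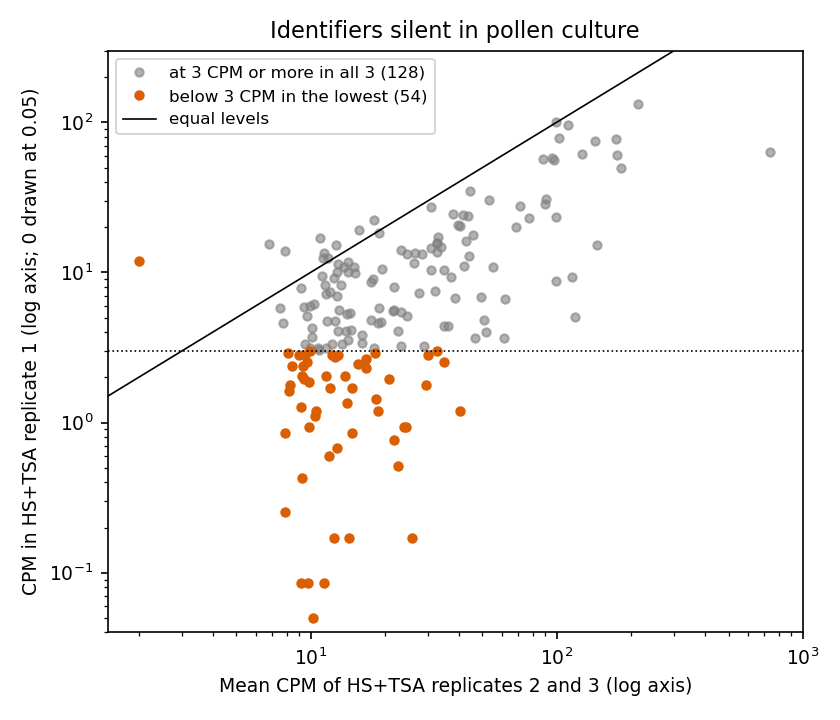
CPM in treated replicate 1 against the mean CPM of treated replicates 2 and 3, on log axes, for the 182 identifiers silent in pollen culture that reached 10 CPM in a treated library. Of these, 171 lie below the line of equal levels, and the 54 (orange) continue the cloud of the other 128 (grey) below the dotted line at 3 CPM, except for 1 at the left.

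No gap was seen at the limits. The members closest to 3 CPM had 2.98 CPM in replicate 1, with 26.3 and 39.2 CPM in replicates 2 and 3 for one and 15.4 and 4.49 CPM for the other. The identifier just outside had 3.06, 10.5 and 11.1 CPM in replicates 1 to 3. At the limit of 10 CPM, the member just inside had 2.89, 10.01 and 6.20 CPM and the identifier just outside had 0.340, 7.55 and 9.90 CPM. A further 5 identifiers had the same pattern in the treated libraries but 4 pollen-culture reads.

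Most genes that were expressed in pollen culture did not show the low level of replicate 1. Replicate 1 was the lowest treated library for 166 of the 182 (91.2%), against 34.0% of the 23530 identifiers that reached 10 CPM in a treated library without being silent in pollen culture. The median level of replicate 1 relative to the mean of replicates 2 and 3 was 1.14 in those 23530. TMM scaling lowers replicate 1, by a factor that moved the log2 median over all 23712 identifiers at 10 CPM from 0.18 to -0.14. With it the median of the 23530 fell to 0.910 and their share lowest in replicate 1 rose to 49.0%, while that of the 182 was 95.1%. The log2 median of the 53 was -3.24 by library totals and -3.58 with TMM scaling. It lay below the median over all 23712 by 3.43 and 3.44 log2 units, a gap that a change of scaling hardly moves by construction. The TMM factors were 1.22, 1.02 and 0.921 in treated replicates 1 to 3, which lowers replicate 1 relative to both others. Replicate 1 therefore had to remain the lowest library for all 53 under TMM, and neither result is a check on the pattern.

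The pattern was also present at other expression limits. Among the 1313 identifiers silent in pollen culture with at least 1 CPM in the highest treated library, replicate 1 was the lowest in 76.8% and the highest in 12.2%. At a limit of 20 CPM (n = 94) these shares were 96.8% and 1.06%. Replicates 2 and 3 shared the lead at every limit, with 622 and 531 identifiers at 1 CPM and 45 and 48 at 20 CPM. In 6 of the 1313, and in none from 5 CPM upward, the lowest level was shared by more than 1 library and counted to the lower replicate number. These sets are nested, so they are not separate observations.

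**Figure D3:**
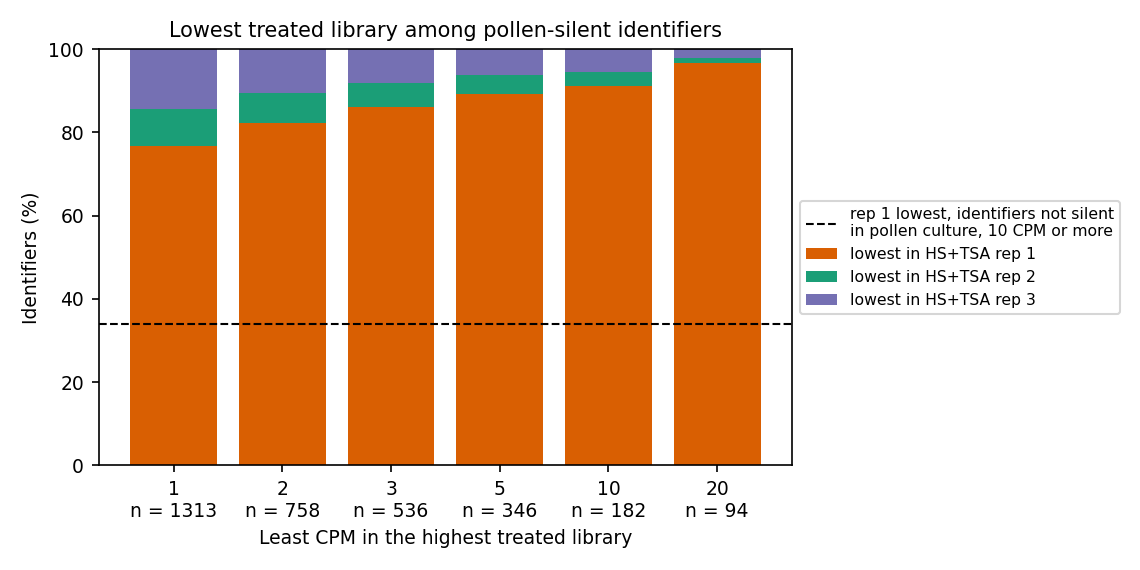
Share of pollen-silent identifiers (%) whose lowest treated library was replicate 1, 2 or 3, by the least CPM required in the highest treated library, with the number of identifiers under each bar. Replicate 1 makes up 76.8% to 96.8% of the bars, and the dashed line at 34.0% is its share among identifiers at 10 CPM or more that were not silent in pollen culture, by library totals (49.0% with TMM scaling); that share was computed at 10 CPM alone.

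Transcripts that were lower after treatment were summed in each library for comparison. The 1209 identifiers called lower after treatment summed to 2179, 2128 and 2814 CPM in treated replicates 1 to 3, against 15623 to 18745 CPM in the pollen-culture libraries. With TMM scaling these sums were 1791, 2088 and 3055 CPM, so the order of replicates 1 and 2 depended on the scaling, and replicate 3 was the highest in both. A call of lower requires low levels in the treated libraries, replicate 1 included, so these sums do not show how much pollen-type RNA in general each library kept. The 2517 identifiers called higher that had more than 3 pollen-culture reads summed to 29068, 39914 and 32077 CPM in treated replicates 1 to 3. Replicate 1 held 72.8% of the level of replicate 2 and 90.6% of that of replicate 3 in that set. In the 54, which the rule chose for a low library, it held 13.2% and 10.9%. Both called sets were chosen on these libraries, and their part in the low level of the 54 was not tested.

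Replicate 1 also differed from its partners in genes that pollen cultures do express, in both groups. Over all identifiers, 270 were below 3 CPM in treated replicate 1 and at 10 CPM or more in replicates 2 and 3, and 24 of these belong to the 54. The same pattern with replicate 2 or 3 as the low library was found 4 and 0 times. Of the other 246, which were not silent in pollen culture, 223 had their lowest pollen-culture level in replicate 1, with medians of 3.70, 15.9 and 16.2 CPM in pollen-culture replicates 1 to 3. The share of all identifiers lowest in that library was not computed. Over all identifiers, 133 were below 3 CPM there with both partners at 10 CPM or more, against 1 and 0 for pollen-culture replicates 2 and 3. The replicate 1 cultures shared low levels of most of the 246, and this is not shown to be particular to them. For the 54 the pollen-culture libraries hold too few reads, 11, 23 and 23 in replicates 1 to 3, to show whether they follow that pattern. The opposite pattern, 10 CPM or more in treated replicate 1 and below 3 CPM in replicates 2 and 3, was found for 180 identifiers. Of these, 1 was silent in pollen culture, and 166 of the other 179 had their highest pollen-culture level in replicate 1.

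**Figure D4:**
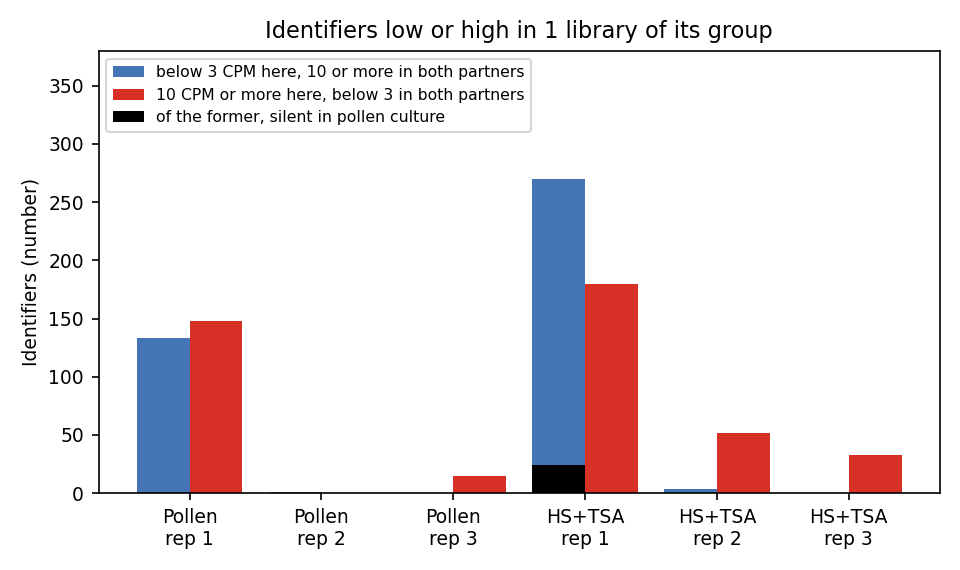
Number of identifiers that were below 3 CPM in 1 library and at 10 CPM or more in both other libraries of its group (blue), or the reverse (red). The black part of the blue bars counts identifiers silent in pollen culture, and the 1 such identifier in the red bars is not marked. Replicate 1 has 133 and 148 in pollen culture and 270 and 180 after treatment, more than any other library of its group.

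Silence in pollen culture was nearly complete for the 54. No read was found for 23 of them, 1 read for 15, 2 reads for 6 and 3 reads for 10, which makes 57 reads in all 3 libraries. In the 23 without a read, the mean of the treated libraries exceeded the level that 3 counts in pollen culture as a whole would give (0.0508 CPM) by at least 105-fold to at least 414-fold. The rule required at most 3 pollen-culture reads and at least 10 CPM in a treated library. A treated mean far above pollen culture in these 23 genes therefore follows from the rule.

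In the test of the whole table, 45 of the 54 passed the filter on low counts and all 45 were called higher after treatment, while 6.66% of all identifiers tested were called higher (edgeR quasi-likelihood test, Benjamini-Hochberg adjusted p of 0.05). The rule chose the members on the same contrast, so this count is no support. The 9 that were not tested had 0 to 5 reads in treated replicate 1, and those tested had at least 6. GSBRNA2T00147022001 was among the 9. With a fit on replicates 2 and 3 alone, 54 of 54 were tested and called, beside 6520 of all 51653 identifiers tested. Without pollen-culture replicate 2 the number called was 13 of 54, beside 781 of 52341. It was 20 of 54 without pollen-culture replicate 3 (1283 of 52878) and 29 of 54 without pollen-culture replicate 1 (2731 of 52810). Without treated replicate 2 it was 30 of the 45 tested, beside 1251 of 51112. The number called over all identifiers thus moved with the fit as well.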

How the data were processed

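Messenger RNA was sequenced from 6 libraries, 3 biological replicates per group, grouped by their titles. The authors deposited raw read counts for each gene identifier, made with TopHat2 and HTSeq, per the submitters' processing notes. Versions, genome build, annotation, strand setting and the handling of reads with several matches were not found there. B. napus holds near-identical gene copies, so each identifier's value is uncertain to that extent. None (0 of 101040) matched the RefSeq gene table of the Da-Ae assembly (123214 genes), so at most 2 identifiers per direction are printed and no gene list was applied. The members, limits and tests were chosen with earlier results of these data known.

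CPM is the count over the library total. The 2 named members are the highest in CPM and the highest led by another library. The whole table was tested with edgeR 4.0.16 (R 4.3.3, quasi-likelihood, TMM, group alone, filterByExpr with a minimum count of 10, 49871 identifiers). The fit was first run on simulated data in which no replicate stood apart from its group. That run therefore does not cover the difference of replicate 1 seen here. Intervals are 95% exact. Library correlations used log2(TMM-scaled CPM + 0.5). No libraries were repeats within sampling noise (chi-square per degree of freedom at least 10.2 in each pair). Alternatives covered scaling, limits, thinning, filters, DESeq2 1.42.0, the replicate block, a term for replicate 1 and each library left out.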

Additional observations from a re-analysis of the deposited data

How the results depend on the processing

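The number of identifiers taken by the rule (54; 1, 21 and 32 led by treated replicates 1 to 3; 29.7% of those silent in pollen culture and reaching the high limit) followed its limits by construction. No pollen-culture read at all gave 23 (0, 7 and 16; 37.1%), a high limit of 5 CPM 181 (9, 74 and 98; 52.3%), a high limit of 20 CPM 15 (0, 5 and 10; 15.96%), a low limit of 1 CPM 18 (0, 7 and 11; 9.89%) and a low limit of 5 CPM 86 (1, 37 and 48; 47.3%). TMM scaling gave 70 with 0 led by replicate 1 (37.8%), and DESeq2 size factors 69 with 0 (37.7%). Thinning gave 68, with 32 led by replicate 2. Leaving out a library gave 0 to 71 members, 1 to 2 led by replicate 1, 0 to 36 by replicate 2, 0 to 41 by replicate 3 and shares of 0% to 30.5%; each 0 came without treated replicate 1. Replicate 1 was the lowest treated library for 53 of 54 members by library totals, for 70 of 70 with TMM, for 169 of 181 at 5 CPM and for 15 of 15 at 20 CPM. TMM lowers replicate 1 relative to the other treated libraries, so the count with it is no separate check. The 1209 identifiers called lower summed to 1791, 2088 and 3055 CPM in treated replicates 1 to 3 with TMM scaling, against 2179, 2128 and 2814 by totals, so replicate 1 became the lowest.

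Identifiers called higher numbered 3320, and 5195 by DESeq2 without the filter, 5526 with a term for replicate 1, 6520 with replicates 2 and 3 alone and 781 to 4307 with a library left out; the cause was not tested. Members called were 45, or 13 to 54 with a library left out. The replicate block gave 3785 identifiers and 45 members. Deviations of libraries with the same number had correlations of 0.53, 0.45 and 0.01 (replicates 1 to 3), and 3 of 6 libraries correlated best with their own number. These were both libraries numbered 1, each best for the other, and pollen-culture replicate 2. Numbers 2 and 3 did not match in both directions, so the numbers were not taken to pair the cultures.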

Other observations

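The reverse set was small, and few of its identifiers fell below the limit of 3 CPM in a library. Of 23 identifiers with at most 3 reads over the 3 treated libraries and 10 CPM or more in the highest pollen-culture library, 2 (8.70%) fell below 3 CPM in the lowest pollen-culture library. GSBRNA2T00067206001 stood at 10.3, 2.77 and 1.86 CPM in pollen-culture replicates 1 to 3 and GSBRNA2T00078022001 at 10.3, 3.63 and 2.82 CPM, and both were named after their values were seen. Pollen-culture replicate 1 was the highest library for 20 of the 23, with a median of 1.70 times the mean of replicates 2 and 3. The share of all identifiers highest in that library was not computed, so 20 of 23 is not shown to be particular to these transcripts. Over all identifiers, 148 were at 10 CPM or more there and below 3 CPM in both partners, against 0 and 15 for pollen-culture replicates 2 and 3. Replicate 1 of the pollen cultures was mostly the highest library for the 23 silent after treatment, and replicate 1 of the treated cultures was mostly the lowest for those silent in pollen culture. The difference between these shares was not tested.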
